A study of Dunaliella tertiolecta with 6 samples.

Results

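Dunaliella tertiolecta is a green alga that lacks a rigid wall and grows in very salty water, and its response to missing iron was measured here in the genes that its annotation names SUTP and CREG1. The genes were chosen by name from the deposited annotation, as those whose symbol is SUTP with a number or CREG1 with an optional copy letter, and 5 of the 14354 genes in the expression table met this rule. They are SUTP1, SUTP3, SUTP4, CREG1A and CREG1B. The interest in these names came from earlier results of the same comparison, so their levels and differences between the iron conditions are given as a description, with no test. The wild-type strain UTEX LB 999 was grown as vegetative cells in medium with 2 M NaCl, in constant light at 24 °C and with shaking at 140 rpm. One set of 3 flasks received no added iron (0 µM) and the other set of 3 received 1.5 µM, all inoculated from precultures at the same cell density. RNA was taken after 2 d according to the sample titles, whereas the label for growth gives 3 days. Poly(A)-selected RNA was sequenced with 50 nt single-end reads, and the values are FPKM, which count fragments relative to the length of the transcript and to the mapped reads of the library. FPKM is a relative, per-length level, so the absolute amount of a transcript per cell is not known from it.

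Iron is a cofactor of heme and iron-sulfur proteins, which are abundant in the photosynthetic chain. Algae that run short of it are known to make more of their iron uptake proteins, such as ferroxidases, ferric reductases and, in Dunaliella, transferrin-like proteins of the cell surface, and to replace some iron proteins by iron-free ones such as flavodoxin. The symbol CREG1 stands in humans for cellular repressor of E1A-stimulated genes, a secreted glycoprotein that is also found in lysosomes. The annotation gives no description for either name, so no role in this alga is assigned to CREG1 or SUTP here.

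All 5 genes were at low to moderate levels with iron and were among the more abundant transcripts without it. CREG1A stood at 1.84, 3.58 and 1.72 FPKM in replicates 1, 2 and 3 with 1.5 µM iron, and at 3313.3, 3876.6 and 3333.6 FPKM without added iron. SUTP1 stood at 1.41, 1.44 and 1.28 FPKM with iron and at 1842.7, 1909.3 and 2096.1 FPKM without it. In both genes the lowest library without iron lay far above the highest library with iron, 925.3-fold in CREG1A and 1281.1-fold in SUTP1. The means were 2.38 ± 1.04 and 3507.9 ± 319.5 FPKM for CREG1A and 1.38 ± 0.0813 and 1949.4 ± 131.4 FPKM for SUTP1 (SD, n = 3 per level here and below). On the scale of log2(FPKM + 1), where 1 FPKM is added before taking the logarithm, CREG1A was higher by 10.06 (SE 0.20) and SUTP1 by 9.68 (SE 0.07) without added iron.

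SUTP3 had the lowest level of the family with iron, at 0.153, 0.163 and 0.0607 FPKM, and reached 259.9, 284.5 and 317.4 FPKM without it. If the steps seen among low FPKM values are single reads, the 3 values with iron stand for about 8.6, 8.5 and 2.1 reads over the full coding length, so this baseline is coarse, above all in replicate 3. The means were 0.125 ± 0.0563 and 287.2 ± 28.8 FPKM, a log2 difference of 8.0 (SE 0.10) at a pseudocount of 1 FPKM. That scale understates a change that starts below 1 FPKM: with 0.01 FPKM added instead, the difference was 11.15 for SUTP3, 10.60 for CREG1A and 10.46 for SUTP1, so which of these genes changed most depended on the pseudocount. As a ratio of mean FPKM, SUTP3 was 2289.2-fold higher without added iron, CREG1A 1474.5-fold and SUTP1 1416.0-fold.

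SUTP4 and CREG1B started from higher levels. SUTP4 stood at 4.77, 25.3 and 4.44 FPKM with iron and at 586.0, 697.1 and 699.2 FPKM without it. The replicate 2 library with iron was thus 5.29-fold above the replicate 1 library, and the spread of SUTP4 with iron (mean 11.5 ± 11.9 FPKM) was as large as its mean, whereas without iron it was small (660.8 ± 64.8 FPKM). The ratio of means was 57.5 with all libraries and 143.5 without that one library, and the log2 difference was 6.14 (SE 0.56) and 6.88. CREG1B stood at 40.5, 43.3 and 39.9 FPKM with iron and at 1316.3, 1709.2 and 1543.8 FPKM without it. Its means were 41.3 ± 1.83 and 1523.1 ± 197.2 FPKM, with a log2 difference of 5.16 (SE 0.10) and a ratio of means of 36.9.

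The same replicate 2 library with iron was also the highest of its group for CREG1A, SUTP1, SUTP3 and CREG1B, by a small margin in the last 3 genes. Among the 9 iron uptake and storage genes that rose, it was the highest library with iron for 5, replicate 1 for 3 and replicate 3 for 1. FOX1, a multicopper ferroxidase, stood at 2.22, 7.54 and 3.03 FPKM with iron, and TFN1A, a transferrin-like protein gene, at 575.0, 888.3 and 562.6 FPKM. The transporter gene IRT1A was instead highest in replicate 1, at 37.2, 21.1 and 17.6 FPKM. Of the 214 genes called higher by at least 2-fold, replicate 2 was the highest library with iron for 88 (41.1%) and replicate 1 for 91 (42.5%), against 37.4% and 32.1% of all genes tested. Without that library the ratio of means was 1973.0 for CREG1A, 2693.5 for SUTP3, 1448.4 for SUTP1 and 37.9 for CREG1B. Why some of these genes were high in that library was not tested.

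**Figure D1:**
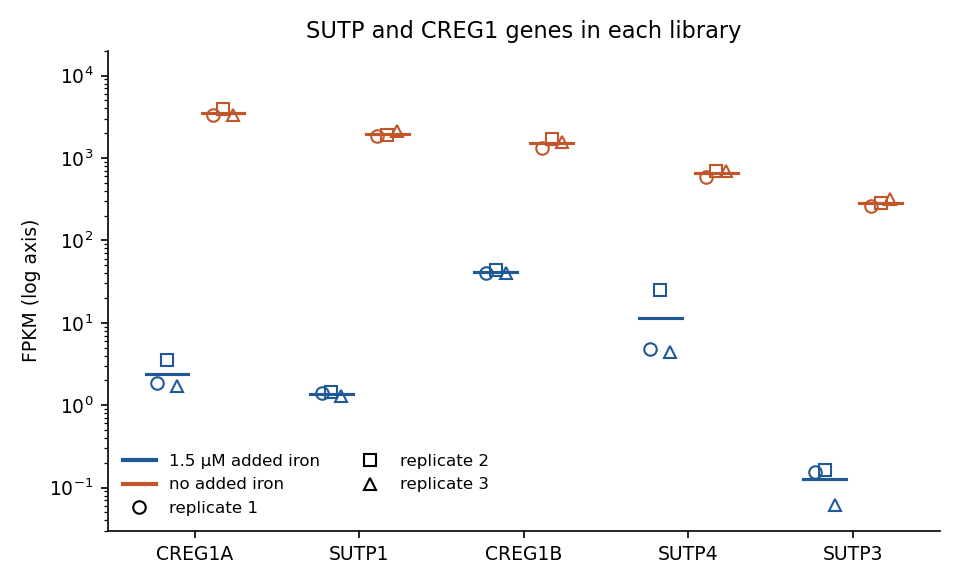
FPKM of the 5 SUTP and CREG1 genes in each library on a log axis, with 1.5 µM added iron (blue) and without added iron (orange); symbols are replicates 1 to 3 and horizontal lines are means. The groups do not overlap in any of the genes, and the open blue square of SUTP4, at 25.3 FPKM, stands above the other libraries with iron.

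For all 5 genes every library without iron lay above every library with iron, which also held for 19.6% of the 11273 genes with a mean of at least 1 FPKM. Since the names were picked for this contrast, nothing is read from that count. By log2 difference among those 11273 genes, CREG1A ranked 1, SUTP1 ranked 3, SUTP3 ranked 7, SUTP4 ranked 13 and CREG1B ranked 21.

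The order of the levels was not the same under both conditions. Without added iron it ran from CREG1A over SUTP1, CREG1B and SUTP4 to SUTP3, and no library of one gene reached the range of the next. With iron it ran from CREG1B over SUTP4, CREG1A and SUTP1 to SUTP3, again with no overlap between neighbours in the order. The CREG1 copies therefore changed places: the ratio of CREG1A to CREG1B was 0.0453, 0.0826 and 0.0431 in the libraries with iron and 2.52, 2.27 and 2.16 in those without. Among the SUTP genes, SUTP1 was below SUTP4 with iron (ratio 0.295, 0.057 and 0.289) and above it without (3.14, 2.74 and 3.0), while SUTP1 exceeded SUTP3 in every library, 6.60- to 7.09-fold without iron. The groups were far apart in each of these ratios except that of SUTP1 to SUTP3, which was 9.22 and 8.82 in replicates 1 and 2 with iron and 21.2 in replicate 3, where SUTP3 rested on about 2.1 reads.

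Together the 5 genes made up 0.854%, 0.944% and 0.988% of the summed FPKM without iron, and 0.00487%, 0.00722% and 0.00483% with it. CREG1A and SUTP1 accounted for most of the former, with 0.602%, 0.644% and 0.671%. Without iron CREG1A ranked between 58 and 67 of all 14354 genes by FPKM and SUTP1 between 91 and 102, whereas CREG1B ranked between 106 and 123, SUTP4 between 166 and 193 and SUTP3 between 273 and 354. With iron SUTP1 ranked between 11024 and 11144 and SUTP3 between 11871 and 12050, near the end of the genes with any signal. CREG1B differed from the rest in that it was already among the better expressed genes with iron, at ranks from 1919 to 2046. The spread between replicate flasks without iron was modest in all 5 genes, with coefficients of variation from 6.74% in SUTP1 to 12.9% in CREG1B.

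**Figure D2:**
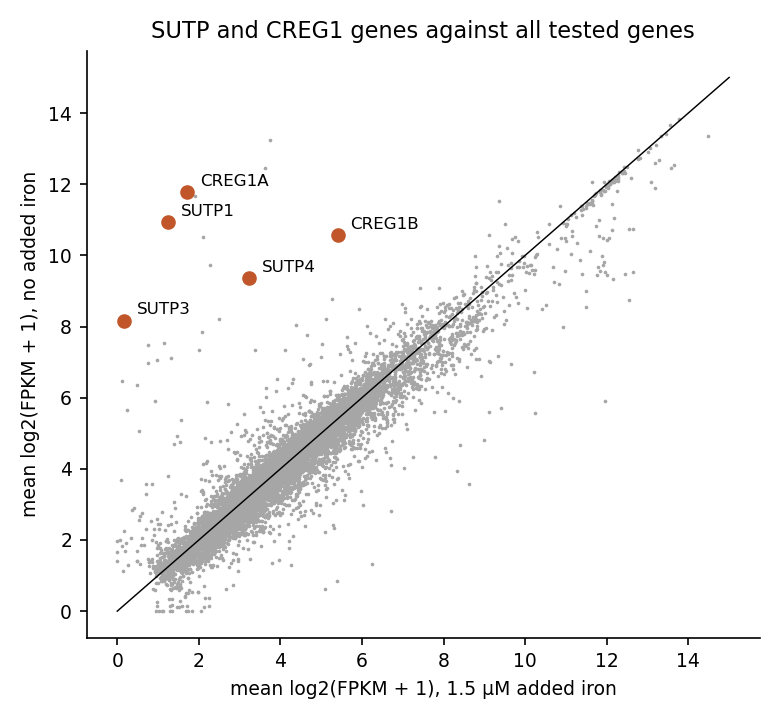
Mean log2(FPKM + 1) of each tested gene with 1.5 µM added iron (horizontal axis) and without added iron (vertical axis), with the line of equality and the SUTP and CREG1 genes in orange. The 5 genes lie far above the line, with log2 differences from 5.16 in CREG1B to 10.06 in CREG1A.

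The gene models bear on how far these genes are related, and were not used in choosing them beyond their names. The models hold coding sequence and introns, with no untranslated regions. SUTP1 (Dte_g07499) spans scaffold_02 from 15602695 to 15609944 on the plus strand of the authors' assembly, with 3165 coding nt in 17 exons. SUTP3 (Dte_g05495) lies on scaffold_01 from 9878384 to 9888810 on the minus strand, with 3417 coding nt, also in 17 exons. SUTP4 (Dte_g06141) lies on the same strand of scaffold_01 from 18550851 to 18556308 and is shorter, with 2028 coding nt in 12 exons. No gene in the annotation carries the symbol SUTP2.

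SUTP3 and SUTP4 shared a run of 5 consecutive coding exons with the same lengths and reading phases, exons 5 to 9 of SUTP3 and exons 6 to 10 of SUTP4. These exons measured 55, 120, 153, 102 and 135 nt, or 565 nt in all. Of the other 10349 nuclear genes with at least 4 coding exons, SUTP4 alone shared an exact run of 5 with SUTP3. The last exon was also 47 nt in both, and the exon before it 808 nt in SUTP3 and 844 nt in SUTP4. Between the shared run and those last exons SUTP3 had 6 further coding exons, exons 10 to 15 with 1308 nt, which have no counterpart in the SUTP4 model, and this makes up most of the difference in coding length. The introns inside the shared run differed in length, for instance 238 nt in SUTP3 and 364 nt in SUTP4 after the exon of 55 nt.

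SUTP1 was less like either of them in exact lengths but followed the same layout. When lengths were allowed to differ by up to 9 nt at equal phase, exons 5 to 11 of SUTP1 matched exons 6 to 12 of SUTP3, a run of 7 exons with 1217 coding nt in each gene. Exons 5 to 8 of SUTP1 matched exons 7 to 10 of SUTP4, a run of 4 exons with 510 nt in each. No other of the 10349 genes shared a run of 5 with SUTP1 at this tolerance, while runs of 4 were also found with 3 genes that bear other names or none. Thus SUTP1 and SUTP3, which had the highest and the lowest level of the SUTP genes without iron, shared the longest run, and the pair with the exact match, SUTP3 and SUTP4, differed 2.20- to 2.45-fold in level without iron.

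CREG1A (Dte_g07498) lies on scaffold_02 from 15598372 to 15602295 on the minus strand, with 771 coding nt in 5 exons, and CREG1B (Dte_g04869) on scaffold_01 from 1704189 to 1706589, also on the minus strand, with 624 coding nt in 6 exons. Their exons did not match in length: no exon length and phase was shared exactly, and at a tolerance of 9 nt the longest run was 1 exon, the fourth of each model (146 and 137 nt). Introns made up most of CREG1A, with 1 of 1844 nt, and coding sequence 19.6% of its span, against 26.0% in CREG1B and 32.8% to 43.7% in the SUTP genes. No other gene had FPKM values identical to those of a SUTP or CREG1 gene across the 6 libraries. The sources used here do not give how reads that match several places were assigned, so levels of SUTP3 and SUTP4 could share reads to an unknown degree.

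**Figure D3:**
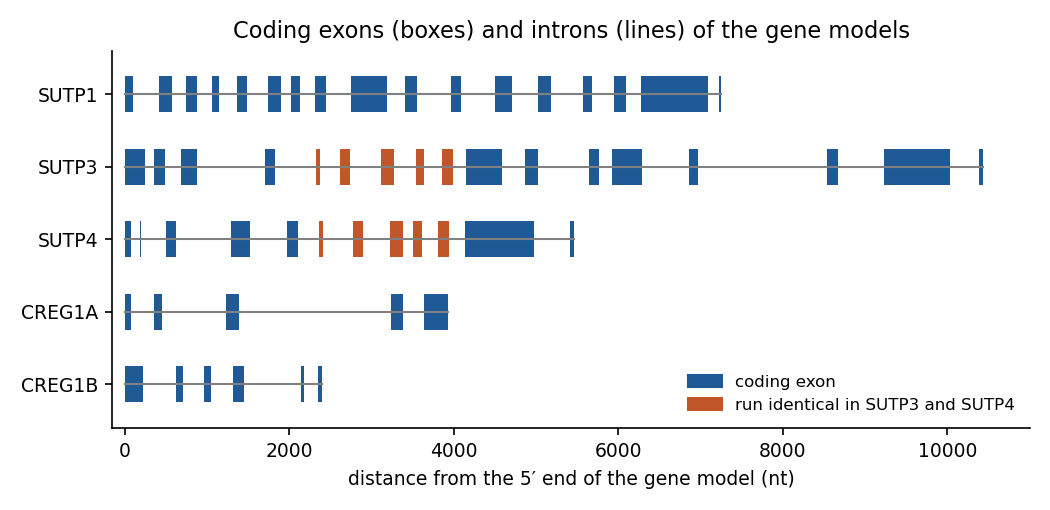
Coding exons (boxes) and introns (lines) of the 5 gene models, drawn to scale from the 5′ end of each model. The orange boxes mark the run of 5 exons with identical lengths and phases in SUTP3 and SUTP4.

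CREG1A and SUTP1 lie head to head on scaffold_02, transcribed away from each other, with 399 nt between their coding regions. This distance is common in the genome, where 51.9% of 4028 divergent neighbour pairs had a shorter one. CREG1A exceeded SUTP1 1.59- to 2.03-fold without iron, and with iron the ratio was 1.31, 2.49 and 1.34, with the high value in replicate 2. Both genes were picked for this contrast, so the likeness of their changes is a description only. The nearest genes outside the pair did not pass the test. The one beyond SUTP1, 5812 nt away, stood at 54.8 FPKM with iron and 50.7 without, and the one beyond CREG1A, 14956 nt away, at 11.2 and 10.1 FPKM (limma adjusted p = 0.2764 and 0.5302).

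The 5 annotated genes on each side of every SUTP and CREG1 gene were chosen by position, and so could be tested. Of 40 such neighbours 36 had a mean of at least 1 FPKM. In the limma fit over all 11273 genes, where a gene was called at a Benjamini-Hochberg adjusted p under 0.05, 5 of the 36 (13.9%) rose and 4 (11.1%) fell without added iron, against 11.6% and 18.7% of all genes tested (30.2% in either direction). With the FPKM sums of the libraries set equal, 10 of the neighbours rose and 2 fell, in a setting where 3188 genes rose and 1087 fell in all instead of 1303 and 2105. With replicates 1 and 2 only, an alternative chosen after seeing the data, 3 neighbours rose and 4 fell. The log2 difference was within 1 unit for 33 of the 36 neighbours (91.7%). The same share was not taken over all genes tested, so nothing about the neighbourhood is read from this count. Around CREG1B, RFC3 for a subunit of replication factor C rose by 0.44 (limma adjusted p = 0.01429, not called with replicates 1 and 2 only), and the dynein heavy chain gene DHC8 did not pass (-0.11, limma adjusted p = 0.5509). An unnamed neighbour of CREG1B with 189 coding nt stood at 0, 5.66 and 4.22 FPKM with iron and at 0, 0.317 and 0 FPKM without it, and did not pass (-1.57, limma adjusted p = 0.1109). Without 1.5 µM replicate 1, where it is listed at 0, it was called lower (-2.43, adjusted p = 0.0003727). Around SUTP3, the unnamed Dte_g05492 and Dte_g05497 fell by 0.82 and 0.78 on the log2 scale (limma adjusted p = 0.000541 and 0.001669). The gene nearest to SUTP3, unnamed and 4904 nt away, rose by 0.33 (limma adjusted p = 0.01557). Its call was lost with replicates 1 and 2 only (adjusted p = 0.09706). It was also lost without 0 µM replicate 2 (0.05567) or 1.5 µM replicate 3 (0.05435). FAP111, named for a flagellar associated protein and next to SUTP3, went from 23.6 ± 8.94 to 37.3 ± 9.47 FPKM and did not pass (0.68, limma adjusted p = 0.1208), but passed with the replicate number as a block (adjusted p = 0.01529), with equal sums (0.02945) and without 1.5 µM replicate 2 (0.04665). Near SUTP4, RPB1, named for a subunit of RNA polymerase II, fell by 0.57 (limma adjusted p = 0.009166), a call lost with equal sums (adjusted p = 0.07883).

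The neighbours with a rise of at least 2-fold were 2 of 36 (5.56%, against 1.9% of all genes tested), and both lie beside SUTP4. Dte_g06142 starts 83 nt from SUTP4 on the opposite strand, so that these genes also form a divergent pair, and only 2.31% of divergent pairs had a shorter gap. It stood at 0.0603, 0.0624 and 0.0512 FPKM with iron and at 10.3, 10.6 and 14.8 FPKM without it (log2 difference 3.59, SE 0.15, limma adjusted p = 4.598e-06). As a ratio of mean FPKM it was 205.4-fold higher, so the log2 difference with 1 FPKM added understates this change. A replicate 2 value as high as that of SUTP4 was not seen: that library was 1.03-fold above replicate 1 for Dte_g06142 and 5.29-fold for SUTP4. If the steps among low values are single reads, Dte_g06142 with iron rested on about 9.2, 8.8 and 4.8 reads over the full coding length. Its baseline is therefore coarse, and smaller differences between these libraries cannot be judged. Dte_g06146, the fifth model beyond SUTP4, stood at 5.54 ± 0.651 FPKM with iron and 56.1 ± 11.1 FPKM without, a rise of 3.11 on the log2 scale (SE 0.15, limma adjusted p = 8.084e-06). The models between them were SRS9E, which did not pass (0.09, limma adjusted p = 0.7669), and 2 genes under 1 FPKM.

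These neighbours of SUTP4 are large genes. Dte_g06142 has 9270 coding nt in 48 exons and Dte_g06146 has 8370 coding nt in 46 exons. With each other they shared an exact run of 4 coding exons, and of 7 at a tolerance of 9 nt. Each shared an exact run of 27 coding exons with a further unnamed gene on the same strand, which starts at 18692225 and was looked up after these values were seen. That gene went from 1.61 ± 0.232 to 25.4 ± 5.15 FPKM (3.32, limma adjusted p = 6.207e-06). Shorter exact runs linked Dte_g06146 to a pair of unnamed genes on scaffold_05 that did not rise. The one with a run of 6 fell from 292.1 ± 17.7 to 200.7 ± 28.5 FPKM (-0.55, limma adjusted p = 0.008296), and the one with a run of 8 did not pass (0.17, limma adjusted p = 0.4423). Genes with long runs of equal exon lengths may share reads, which was not checked by sequence, so their separate levels are uncertain. The strand of the reads and the untranslated regions are not known from these sources. Reads from the start of SUTP4 that reached past the gap of 83 nt could count for Dte_g06142 if strand was ignored. The size of such an effect cannot be told apart in values per gene.

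**Figure D4:**
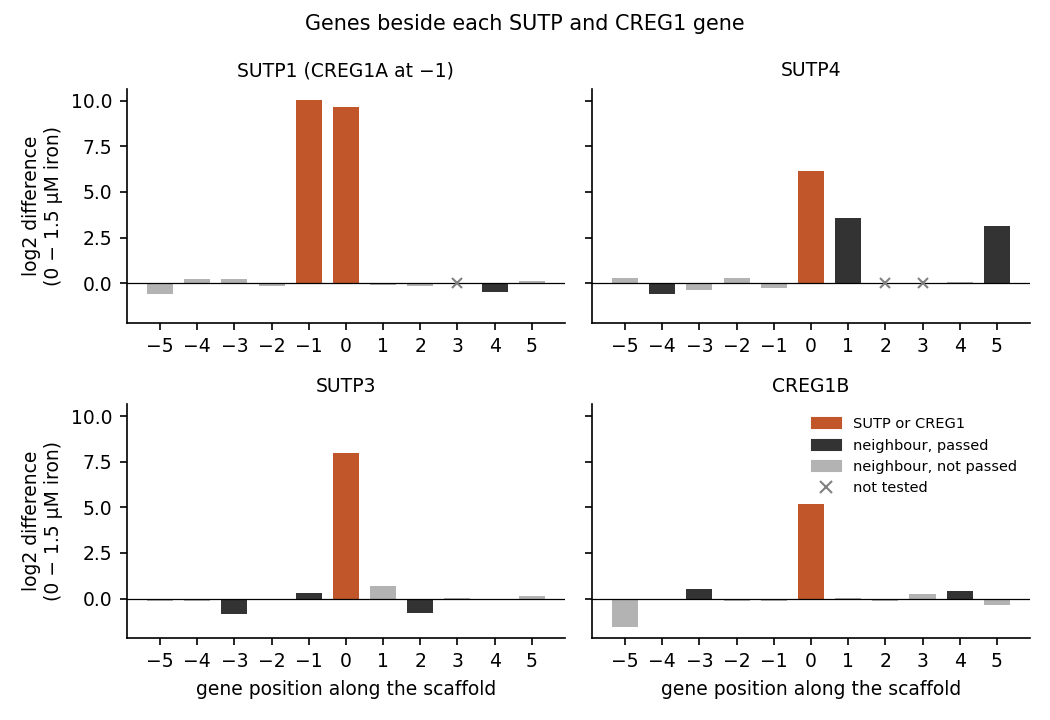
Log2 difference of the 5 gene models on each side of SUTP1, SUTP4, SUTP3 and CREG1B. Differences are no added iron minus 1.5 µM, on log2(FPKM + 1). CREG1A is the model at position -1 in the panel of SUTP1. Orange bars are the SUTP and CREG1 genes, and crosses are genes below 1 FPKM. Dark bars are neighbours that passed the test, and light bars those that did not. The panel of SUTP4 has the neighbours that rose most, at 3.59 and 3.11, and the panel of CREG1B has a light bar at -1.57 for a gene that did not pass.

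Among all 3041 divergent pairs with both genes tested, both rose in 74 (2.43%), against 1.33% of convergent pairs and 2.3% of pairs on the same strand. Both rose by at least 2-fold in 10 divergent pairs, 11 of 3824 pairs on the same strand and 1 of 2338 convergent pairs. At 8-fold or more the limma calls gave 4 divergent pairs, 3 pairs on the same strand and 0 convergent pairs, of the 31 convergent pairs in which both rose. Of the 4 divergent pairs, a pair is CREG1A with SUTP1 and another is SUTP4 with Dte_g06142. The others, named after their values were seen, are TFN3, a transferrin-like gene, with an unnamed gene 179 nt away (5.86 and 3.46), and UBC16, named for a ubiquitin-conjugating enzyme, with the unnamed Dte_g01071 341 nt away (3.51 and 8.41). The SUTP and CREG1 pairs are part of these counts and are no separate evidence.

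**Figure D5:**
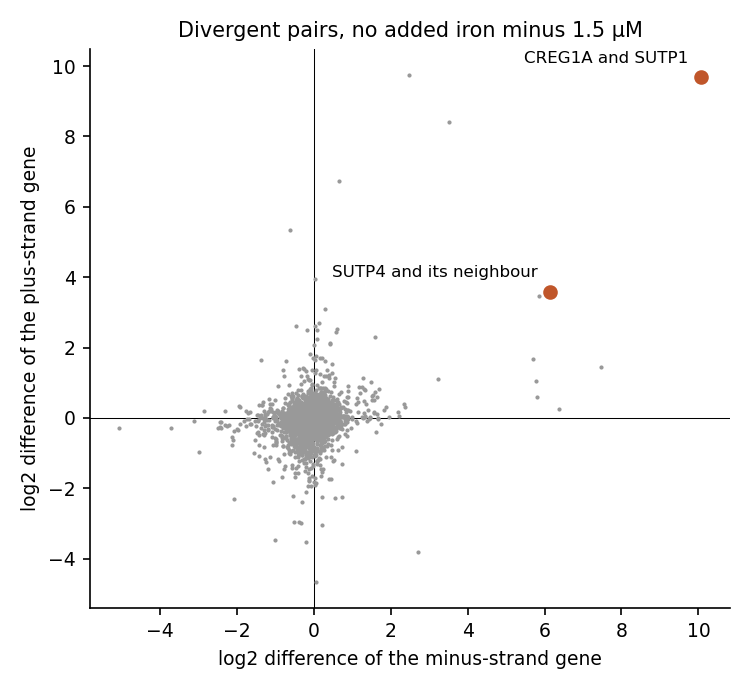
Log2 difference (no added iron minus 1.5 µM) of the gene on the minus strand (horizontal axis) and on the plus strand (vertical axis) for each divergent pair of neighbouring genes with both tested. CREG1A with SUTP1 lies at the upper right corner, at 10.06 and 9.68, and SUTP4 with its neighbour at 6.14 and 3.59.

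Genes with a similar pattern were found by the distance between profiles of log2(FPKM + 1) over the 6 libraries, each centred on its own mean, among all genes tested. This measure depends mostly on the size of the difference between the iron conditions, for which the SUTP and CREG1 genes were picked, and for SUTP3 that size depends on the pseudocount. The neighbours found are therefore a description only. The gene nearest to SUTP1 was the unnamed Dte_g14165 at a distance of 0.15, which went from 2.73 ± 0.266 to 3235.0 ± 330.5 FPKM, followed by FLD1 for flavodoxin (0.50) and CREG1A (0.76). For CREG1A the nearest genes were Dte_g14165 (0.65), SUTP1 (0.76) and FLD1 (0.77). SUTP3 was nearest to the unnamed Dte_g01071 (0.68), FOX1 (1.20) and TIDI1 (1.25), an antenna protein gene known from iron-starved Dunaliella. SUTP4 was nearest to 2 unnamed genes (0.77 and 1.07) and to TFN3 (1.66), whose replicate 2 was the highest with iron by less (0.345, 0.564 and 0.291 FPKM). Both unnamed genes were highest in that library too, at 2.52, 9.42 and 1.0 FPKM and at 1.09, 2.62 and 0 FPKM. CREG1B was nearest to FRE1A, a ferric reductase gene (0.35), FUM2, named for fumarase (0.44), and an unnamed gene without a model (0.70).

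In the list of iron uptake and storage genes, taken by symbol with earlier results known, 9 of 13 tested genes rose and 2 fell, with a median log2 difference of 1.97 against -0.03 for all genes tested, of which 11.6% rose and 18.7% fell. The differences of FOX1 (7.46, limma adjusted p = 5.254e-06), TFN3 (5.86, limma adjusted p = 1.732e-07) and FRE1A (5.35, limma adjusted p = 1.712e-07) were the largest of the list. All were below those of CREG1A, SUTP1 and SUTP3, which were picked for this contrast. With 1 FPKM added, SUTP4 (6.14) lay below FOX1 only, and CREG1B (5.16) below FOX1, TFN3 and FRE1A. That scale understates the change of TFN3, whose mean with iron was 0.4 FPKM, so the place of SUTP4 depended on the pseudocount. As a ratio of mean FPKM, TFN3 was 201.7-fold higher without added iron and FOX1 198.8-fold, both above SUTP4 at 57.5-fold. The transporter genes IRT1A (3.10), IRT1B (2.54) and NRAMP4 (1.75), the reductase gene FRE1B (1.97) and the transferrin-like genes TFN1A (2.15) and TFN5 (0.96) rose by less. The transferrin-like gene TFN7 (-0.72) and FER1 for the iron storage protein ferritin (-1.26) fell. TFN1B (-0.11, limma adjusted p = 0.4471) and TFN6 (-0.20, limma adjusted p = 0.07654) did not pass, and TFN6 passed with the replicate number as a block (adjusted p = 0.04253) and without 0 µM replicate 3 (0.04778). In level without iron, TFN1A (2941.5 ± 46.2 FPKM) stood between CREG1A and SUTP1, and FOX1 (847.5 ± 78.8 FPKM) between CREG1B and SUTP4.

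Genes for the transport and assimilation of sulfate, a list taken by symbol in view of the first letters of SUTP, did not show changes of that size. Of 17 tested genes 1 rose and 3 fell, with a median log2 difference of 0.05, against 11.6% higher and 18.7% lower among all genes tested, so the share that fell was near that of all genes. OASTL4, named for O-acetylserine (thiol) lyase, which makes cysteine, rose from 145.2 ± 6.49 to 248.3 ± 20.1 FPKM (0.77, limma adjusted p = 0.0003766). SIR1 for sulfite reductase, which carries iron-sulfur and siroheme groups, fell from 265.9 ± 8.07 to 105.8 ± 7.82 FPKM (-1.32, limma adjusted p = 1.682e-05). SLT5 (-0.58, limma adjusted p = 0.02965), of a family known in Chlamydomonas as sodium-sulfate transporters, and SULP2 (-0.34, limma adjusted p = 0.03433), named for a chloroplast sulfate permease, fell by less. Both calls were lost without any of several single libraries: SLT5 without 0 µM replicate 2 (adjusted p = 0.05821) or 1.5 µM replicate 1 (0.077) or 3 (0.0849), and SULP2 without 0 µM replicate 1 (0.06937), 2 (0.06135) or 3 (0.09621) or 1.5 µM replicate 1 (0.09565) or 3 (0.0931). SLT5 was also lost without a filter (adjusted p = 0.05478) and with equal sums (0.1221), and SULP2 with median ratios (0.07044) and with equal sums, where its difference was -0.12 (0.3798). With replicates 1 and 2 only both were lost (0.07573 and 0.2023). The other transporters of the list did not pass: SLT2 (-0.25, limma adjusted p = 0.1066), SLT3 (-0.15, limma adjusted p = 0.1682), SULP1 (0.05, limma adjusted p = 0.6485) and SULP3 (0.20, limma adjusted p = 0.07876). SULP3 passed with median ratios (adjusted p = 0.04377) and equal sums (0.009268), and SULP1 with equal sums (0.03106). With equal sums 8 genes of the list rose and 1 fell, and with the replicate number as a block 2 rose and 4 fell, with ATS1 for ATP sulfurylase (adjusted p = 0.02818) and SIR3 (adjusted p = 0.043) added.

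Across the series, between 12253 and 12509 genes had a value above 0, and the FPKM of a library summed to between 808592 and 898151 without iron and between 982304 and 1021467 with it. If a step among low values is 1 read, the depths were between 16200000 and 20200000 reads without iron and between 10200000 and 16400000 with it, least in 1.5 µM replicate 3. In the length classes that hold the 5 genes, the median deviation of a library from its group mean lay between -0.10 and 0.11 on the log2 scale. Both extremes were in the class of 3001 to 5000 coding nt, which holds SUTP1 and SUTP3, in replicates 1 and 3 without iron.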

How the data were processed

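Each gene has an FPKM value in each of 6 libraries, deposited by the authors. Per the labels' design text, these came from cuffdiff after STAR alignment, and the submitters' processing notes list STAR 2.4.0j and Cuffdiff 2.0.2. Start and end coordinates are those of the deposited annotation on the authors' assembly, and nuclear coding lengths are multiples of 3 in 98.5% of models. Count models do not suit FPKM. Genes with a mean of at least 1 FPKM (11273 of 14354) were therefore tested on log2(FPKM + 1) with limma 3.58.1 in R 4.3.3, using eBayes with a trend, two-sided tests and Benjamini-Hochberg adjustment. Fold changes of low genes come out too small on this scale. The code was tested on simulated data. Members, lists and tests were chosen with earlier results of these data known. Named are the SUTP and CREG1 genes, their 5 neighbours on each side (at most 2 unnamed each way), the genes of both symbol lists that passed (others where 5 or fewer, plus the sulfate transporters, chosen after their values were seen), and the 3 nearest profiles of each member (at most 2 unnamed by ID).

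The sources do not say if the flasks had separate precultures, and p-values then cover only the differences among flasks. Deviations from group means had correlations across genes of 0.24, 0.26 and 0.17 for libraries with the same replicate number, so the numbers may pair them. That comes from the data, not from a label. The main test left such a pairing out, and the replicate block was an alternative that gave more calls. Low FPKM times coding length fell on steps, best with the length shortened by 205 nt in 3 libraries and with the full length in the other 3. The best bin held between 16% and 30.1% of low values, so read numbers are rough and depth is not known exactly. The other alternatives were a pseudocount of 0.1 or 0.01 FPKM, filtering at 5 FPKM or not at all, median ratios, quantile normalization, equal sums, eBayes made robust or run with no trend, each library left out, and, chosen after seeing the data, replicates 1 and 2 only. Figures were drawn with matplotlib 3.10.9. No sequence was used.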

Additional observations from a re-analysis of the deposited data

How the results depend on the processing

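The direction of the difference of all 5 SUTP and CREG1 genes was the same in every alternative run. These genes were picked for this contrast and their groups lie far apart, so nothing is read from the unchanged direction. With 0.1 FPKM added the log2 difference was 10.54 for CREG1A, 10.37 for SUTP1 and 10.34 for SUTP3, and with 0.01 FPKM it was 10.60, 10.46 and 11.15. Quantile normalization gave 5.53 for CREG1B and 10.02 for SUTP1, and equal sums gave 5.39 for CREG1B, 9.86 for SUTP1 and 8.13 for SUTP3. With replicates 1 and 2 only, SUTP1 was at 9.60 and SUTP3 at 7.88. Leaving out a library moved the values from 9.92 to 10.30 for CREG1A, from 5.08 to 5.27 for CREG1B, from 9.63 to 9.72 for SUTP1, from 7.92 to 8.07 for SUTP3 and from 5.74 to 6.88 for SUTP4.

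Over all genes, 3188 were higher and 1087 lower with equal sums, which moved the median of all genes from -0.03 to 0.17, and 549 and 1136 with replicates 1 and 2 only. Leaving out a library gave 795 to 1288 higher and 1526 to 1910 lower, fewest higher without 0 µM replicate 2 (795) and 1.5 µM replicate 3 (855). Of the neighbours 10 rose and 2 fell with equal sums, 3 rose with replicates 1 and 2 only, and 4 to 6 rose and 3 to 5 fell without a library. The rises in the iron list were 9 in every alternative, with 2 or 3 falls. In the sulfur list 2 rose with 0.1 FPKM added, without a filter, with a filter of 5 FPKM and with the replicate block, 5 with median ratios, 3 under quantile normalization and 8 with equal sums. Its falls came to 1 both after equalizing the sums and for replicates 1 and 2 alone, and without a library 1 to 2 rose and 1 to 4 fell. The replicate block gave 1611 genes higher and 2362 lower, and beside the calls named with it above added 1 unnamed gene on the far side of CREG1A that fell. The cause of these shifts was not tested. Depth limits the baseline of SUTP3 with iron most.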
